A study of Mus musculus with 6 samples.

Results

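The serpins measured here were the 50 protein-coding genes of mouse aorta whose symbol consists of Serpin, a clade letter from a to i and a number, out of 32771 genes in the deposited table. Another 4 rows with a Serpin symbol were not protein coding and were not members: Serpina3h, Serpina3d-ps, Serpina3e-ps and Serpina4-ps1. A mean of 1 CPM (counts scaled to library size with edgeR's TMM factors) over the 6 libraries was reached by 19 members. The other 31 had means of 0.01 to 0.91 CPM. Just inside that limit were Serpina3i at 1.11 CPM and Serpinb6c at 1.66 CPM, and just outside it were Serpina1b at 0.91 CPM and Serpinb5 at 0.89 CPM.

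RNA was sequenced from whole aortas of wild-type mice that all received AngII (angiotensin II) and BAPN, an inhibitor of the collagen and elastin cross-linking enzyme lysyl oxidase, a combination used in mice to provoke aortic dissection. One group received an antibody against CTHRC1, a secreted glycoprotein of injured arteries (replicates 5, 7 and 39), and the control group received isotype IgG (replicates 14, 18 and 20). The question was how blocking CTHRC1 alters the diseased aorta, and no group without AngII and BAPN was analysed here. Strain, age, sex, doses and times are not given in the labels, nor do they say that each library came from a different animal. The p-values therefore speak only of how these libraries vary, which may be technical.

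Serpins are a superfamily of proteins with a common fold. Most inhibit serine or cysteine proteases: the protease cuts an exposed reactive centre loop, the serpin changes shape and both are trapped as a covalent pair. The sequence of that loop sets which protease is caught, and a few members have lost inhibition and act as chaperones, hormone carriers or signalling proteins. In the vessel wall, serpins restrain clotting and fibrinolysis, complement and leukocyte granule proteases, and the chaperone Serpinh1 assists collagen folding.

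Library totals were 64556253 to 67859566 counts, and 0.354% to 0.515% of the counts fell on members. Mitochondrial genes took 12.3% to 22.8%. Of 19241 genes tested with edgeR's quasi-likelihood test, 61 passed an adjusted p of 0.05, 20 higher and 41 lower in the antibody group. The biological coefficient of variation was 0.397. Cthrc1 mRNA was 264.9 ± 7.24 CPM with the antibody and 179.5 ± 69.8 CPM with IgG (SD, n = 3 each, edgeR adjusted p = 0.382), and since the antibody binds the protein this does not check the labels. Antibody replicate 39 lay between replicates 5 and 7 in 52.5% of genes tested and in 13 of the 19 members of 1 CPM or more, and the main counts are also given without it. All 8 aortic smooth muscle markers were above 1 CPM.

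The members lie in clusters. All 20 clade A members lie within 0.768 Mb of chromosome 12, and clade B is split between chromosome 13 with 11 members and chromosome 1 with 9. The Serpina3 genes of the chromosome 12 cluster arose by duplication in rodents from the ancestor of human SERPINA3 and diverged fastest in the reactive centre loop. The coding stretches for that loop are shown because they separate the copies that later part ways between the groups. Each starts at the conserved hinge codons and is given 5′ to 3′ on the coding strand from GENCODE M21 transcripts (build GRCm38), and capitals mark bases that differ from Serpina3g in a pairwise alignment whose gaps are not drawn. On chromosome 12 they lie at chr12:104147322-104147387 (minus strand, Serpina3c), chr12:104220245-104220322 (Serpina3f), chr12:104241072-104241146 (Serpina3g), chr12:104268480-104268554 (Serpina3i), chr12:104393769-104393843 (Serpina3m) and chr12:104413448-104413522 (Serpina3n), all but the first on the plus strand.
Serpina3c loop: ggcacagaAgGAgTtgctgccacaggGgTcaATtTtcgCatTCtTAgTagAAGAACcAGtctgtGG
Serpina3f loop: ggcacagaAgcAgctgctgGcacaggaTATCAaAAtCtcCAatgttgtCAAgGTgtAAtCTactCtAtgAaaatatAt
Serpina3g loop: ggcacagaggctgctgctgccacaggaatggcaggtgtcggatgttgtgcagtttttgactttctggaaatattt
Serpina3i loop: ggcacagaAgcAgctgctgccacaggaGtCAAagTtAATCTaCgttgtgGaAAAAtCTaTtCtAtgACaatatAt
Serpina3m loop: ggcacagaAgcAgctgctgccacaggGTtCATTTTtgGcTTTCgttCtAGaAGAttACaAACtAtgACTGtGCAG
Serpina3n loop: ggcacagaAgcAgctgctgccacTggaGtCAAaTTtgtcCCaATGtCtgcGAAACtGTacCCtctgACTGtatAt
The loop of Serpina3m differed from that of Serpina3g at 35 of its 75 bases and that of Serpina3f at 26 of its 78. Over the 15 pairs of these genes, aligned coding bases were 81.9% to 91.3% identical. Loop identity was 53.3% to 74.7%, taken as identical bases over the length of the longer loop, which lowers it where lengths differ. By these unlike measures, identity was lower in the loop than over the coding sequence in each of the 15 pairs. The annotated coding sequence of Serpina3g had 744 bases against 1224 to 1335 in the other genes of this set.

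**Figure D1:**
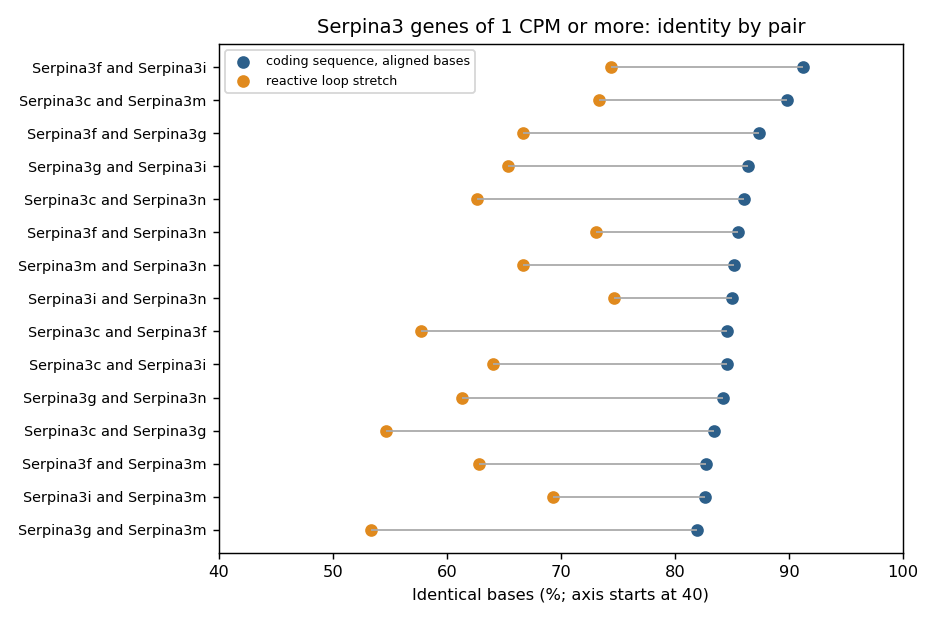
Identity (percent of identical bases, axis from 40 to 100) between each pair of the 6 Serpina3 genes of 1 CPM or more. Blue points stand for the coding sequence, as a percent of aligned bases. Orange points stand for the reactive loop stretch, as a percent of the longer stretch. In each of the 15 pairs the orange point lies to the left of the blue one.

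How far such likeness can mix the counts depends on the fragment. Of the 19 members of 1 CPM or more, 18 shared no exact window of 150 bases, the read length, with a transcript of another gene. The exception was Serpina3m, with 0.331% of its windows in Serpina3k, a copy whose whole gene lies inside the annotated span of Serpina3m on the same strand. Serpina3g shared no window of 150 bases, 4.64% of its windows of 100 bases and 16.0% of those of 50 bases, and its longest exact match was 135 bases, with Serpina3i. The gene AC142112, with a mean of 0.150 CPM, overlaps 3436 of the 5695 bases of Serpina3g on the same strand. True near-identity was found in Serpina1a to Serpina1e, the mouse copies of alpha-1-antitrypsin, all under 1 CPM. Serpina1c shared 50.5% of its windows of 150 bases with Serpina1a, so the counts of these copies are uncertain. Serpinb9f, also under 1 CPM, shared 38.6% of its windows of 150 bases with transcripts of other genes.

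The promoters of 4 Serpina3 genes are printed because Serpina3f, Serpina3g and Serpina3i were each lower in all antibody libraries than in all IgG libraries while the abundant neighbour Serpina3n was not. Each runs from 250 bases before to 50 bases after a RefSeq start in GRCm38.p6, plus strand: chr12:104235897-104236196 (Serpina3g), chr12:104214294-104214593 (Serpina3f), chr12:104262872-104263171 (Serpina3i) and chr12:104406458-104406757 (Serpina3n). Capitals mark TTCNNNGAA, the form of site that STAT factors bind, which reads the same on both strands.
Serpina3g promoter: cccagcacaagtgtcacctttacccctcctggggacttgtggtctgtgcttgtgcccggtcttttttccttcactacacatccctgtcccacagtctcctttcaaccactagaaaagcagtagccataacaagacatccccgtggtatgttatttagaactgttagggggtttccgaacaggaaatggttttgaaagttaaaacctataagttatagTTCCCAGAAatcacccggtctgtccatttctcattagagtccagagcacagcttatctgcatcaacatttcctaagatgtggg
Serpina3f promoter: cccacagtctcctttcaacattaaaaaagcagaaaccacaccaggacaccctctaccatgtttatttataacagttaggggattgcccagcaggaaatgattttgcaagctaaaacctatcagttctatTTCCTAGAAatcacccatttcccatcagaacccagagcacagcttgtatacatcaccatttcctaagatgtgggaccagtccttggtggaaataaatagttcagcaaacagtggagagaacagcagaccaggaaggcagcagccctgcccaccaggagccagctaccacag
Serpina3i promoter: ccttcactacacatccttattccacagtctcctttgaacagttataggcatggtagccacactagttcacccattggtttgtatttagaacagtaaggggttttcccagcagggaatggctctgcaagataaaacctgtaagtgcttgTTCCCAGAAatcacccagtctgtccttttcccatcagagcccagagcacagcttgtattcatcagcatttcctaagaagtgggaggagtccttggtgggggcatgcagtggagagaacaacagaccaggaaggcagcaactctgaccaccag
Serpina3n promoter: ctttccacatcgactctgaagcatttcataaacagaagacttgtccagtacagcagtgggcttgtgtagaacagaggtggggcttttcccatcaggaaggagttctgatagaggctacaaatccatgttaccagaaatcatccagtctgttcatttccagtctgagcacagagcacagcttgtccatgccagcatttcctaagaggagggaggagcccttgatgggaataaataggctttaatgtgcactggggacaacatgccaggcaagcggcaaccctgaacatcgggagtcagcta
Matches stood at position -33 from the start in Serpina3g, at -121 in Serpina3f and at -102 in Serpina3i, and there was none in this window of Serpina3n. That window holds ttaccagaa, which differs from the TTCCCAGAA of Serpina3g and Serpina3i only by an a in place of a C. A second RefSeq start of Serpina3f puts its match at -210. The motif was in none of the entries of Serpina5, Serpinb6b and Serpina3a, which were also lower in all antibody libraries than in all IgG libraries (Serpina3a was under 1 CPM, not tested, and named after its values were seen). Over all 32851 promoter entries, 8.30% held the motif. Among the 43 members with an entry it was in 6 genes (13.95%), the other three being Serpina1f, Serpinb2 and Serpinb6a. A member was counted if any of its entries held the motif, so this share by gene is not on the same basis as the share by entry. The promoter of Serpina3g was 61.3% identical to that of Serpina3i, 56.3% to that of Serpina3f and 48.0% to that of Serpina3n. The promoter of Serpina3n was 65% identical to that of Serpina3f and 66% to that of Serpina3i, above the identity of Serpina3g to either. Serpina3f and Serpina3i were 74.7% identical to each other. The windows are offset: that of Serpina3g ends at 104236196, before the gene's start in the deposited table (104236245). Those of the other printed genes run past theirs. Motif positions and whole-window identities depend on this offset and do not rank how far the promoters diverged. A match of these letters is a description of the sequence and not a measured site.

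Of the 50 members, 37 passed the filter on low counts and were tested with edgeR. Serpina3g fell, and it was the 1 member of the 37 to pass in either direction, where 0.317% of all genes tested passed (0.104% higher and 0.213% lower). At an unadjusted p under 0.05, 2 members were higher and 8 lower, and over all genes tested 17.1% reached that p (7.8% higher and 9.31% lower). DESeq2 called 2 members higher (Serpinf1 and Serping1) and 6 lower, among them Serpina1b, Serpina3f, Serpina3g, Serpina5 and Serpinb6b. Among the genes tested in edgeR it called 7.52%, 3.04% higher and 4.49% lower. Among the 37, the groups did not overlap in 2 members that were higher and 7 that were lower. Over all genes tested the share was 11% in each direction and 22.0% in either. Without antibody replicate 39, edgeR called 0 members and 0 genes of the whole table, and DESeq2 called 4 members. Replicate 39 was not alone in this, since edgeR also called 0 members and 0 genes without antibody replicate 7 or without IgG replicate 18. The median log2 fold change (antibody minus IgG) was -0.09 over the 37 members and -0.02 over all genes tested.

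**Figure D2:**
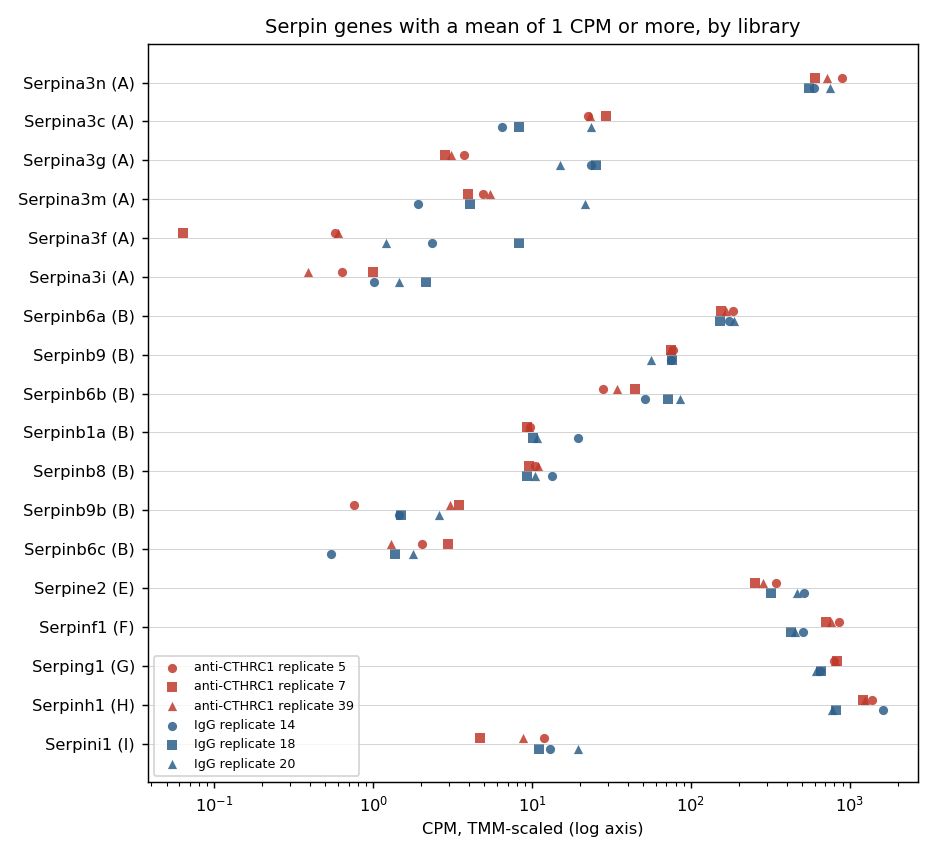
TMM-scaled CPM on a log axis for 18 members of 1 CPM or more, with their clade letter. Each point is 1 library, red for anti-CTHRC1 and blue for IgG, and the red points of Serpina3g, at 2.82 to 3.70 CPM, lie left of its blue points at 14.9 to 25.2 CPM.

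The plot of CPM by library shows the values given in the text below. Per length, in the authors' FPKM values averaged over the 6 libraries, Serpinh1 had the highest level at 462.5 FPKM. Serpina3n followed at 315.1, Serping1 at 296.9 and Serpinf1 at 248.4 FPKM. Serpine2 was at 42.1 FPKM, and the clade B members reached 29.9 FPKM in Serpinb6a. Together the members summed to 4084 to 4795 CPM in the antibody group and 3642 to 4576 CPM in the IgG group.

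Clade A holds the extracellular inhibitors related to antitrypsin and antichymotrypsin, and here its level came almost wholly from Serpina3n. Serpina3g (ENSMUSG00000041481, chr12:104236245-104241939, plus strand) encodes an inhibitor that works inside cells, where in mice it blocks lysosomal cysteine cathepsins and protects leukocytes from death. It measured 3.70, 2.82 and 3.08 CPM in antibody replicates 5, 7 and 39, and 23.3, 25.2 and 14.9 CPM in IgG replicates 14, 18 and 20. The highest antibody library was below the lowest IgG library, so the groups did not overlap. The means were 3.20 ± 0.455 CPM with the antibody and 21.2 ± 5.47 CPM with IgG (SD, n = 3 each), a log2 fold change of -2.72 (SE 0.24, edgeR adjusted p = 0.0194, DESeq2 adjusted p = 4.731e-21). It held the same direction with each library left out, from -2.88 to -2.58, but edgeR's adjusted p then ran from 0.0236 to 0.227 and passed only without IgG replicate 14 (0.0236) or IgG replicate 20 (0.0244). The adjusted p was 0.0750 without antibody replicate 5, 0.161 without 7, 0.227 without 39 and 0.0786 without IgG replicate 18.

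Leukocyte markers are given beside Serpina3g by cell type. For these and the later marker lists, the shares over all genes tested were 0.317% called by edgeR and 7.52% called by DESeq2. In edgeR 17.1% had an unadjusted p under 0.05, and 10066 of the 19241 genes tested had negative log2 fold changes. All 10 macrophage markers had negative log2 fold changes, and 2 of them, Mpeg1 and Trem2, passed edgeR's test as lower. Their summed level was 727.2 to 1034 CPM in the antibody group and 1411 to 1908 CPM with IgG, and none of the 10 was at 0. Of 11 T and NK cell markers 10 had negative log2 fold changes and none passed edgeR's test, although 5 had an unadjusted p under 0.05 and DESeq2 called 5 lower. They summed to 5.07 to 7.13 CPM with the antibody and to 27.3, 50.6 and 4.86 CPM in IgG replicates 14, 18 and 20. Of 6 mast cell markers tested 5 had positive log2 fold changes (median 0.70), the 6 neutrophil markers tested had a median of -0.13, and edgeR called 0 in either list, with 0 at an unadjusted p under 0.05 and 0 called by DESeq2. IgG replicate 20 had the lowest Serpina3g level of the IgG libraries (14.9 CPM) and also their lowest macrophage and T and NK cell sums. Its T and NK cell sum was below that of each antibody library. The part of these cells in the result was not tested, and in bulk tissue fewer cells of a type and less RNA per cell cannot be told apart.

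The copies nearest to Serpina3g in sequence were scarce. Serpina3f measured 0.575, 0.063 and 0.601 CPM in the antibody libraries and 2.35, 8.27 and 1.20 CPM in the IgG libraries, given here and below in the order of replicates 5, 7, 39 and 14, 18, 20. The groups did not overlap, and IgG replicate 18 stood above the rest. Its log2 fold change was -3.25 (SE 1.02, edgeR adjusted p = 0.201, DESeq2 adjusted p = 0.00397), and it ranged from -3.65 to -2.10 with each library left out. Serpina3i, at 0.635, 0.992 and 0.391 CPM with the antibody and 1.02, 2.15 and 1.45 CPM with IgG, also had groups that did not overlap, by a margin of 0.992 to 1.02 CPM (log2 fold change -1.19, SE 0.50, edgeR adjusted p = 0.291, DESeq2 adjusted p = 0.216). With the counts of Serpina3f, Serpina3g, Serpina3h and Serpina3i summed before the test, a choice made after seeing the data, the sum fell from 18.8 to 36.4 CPM with IgG to 4.39 to 5.47 CPM with the antibody (log2 fold change -2.49, SE 0.26, edgeR adjusted p = 0.0249).

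Serpina3n (ENSMUSG00000021091, chr12:104406729-104414329, plus strand), a secreted acute-phase inhibitor of granzyme B, cathepsin G and leukocyte elastase in mice, was the most abundant clade A member. Its levels were 893.3, 607.9 and 719.0 CPM with the antibody and 592.9, 550.8 and 747.9 CPM with IgG. The groups overlapped, with IgG replicate 20 above antibody replicates 7 and 39. The means of 740.1 ± 143.9 and 630.5 ± 103.8 CPM differed by 0.23 on the log2 scale (SE 0.19, edgeR adjusted p = 0.593, DESeq2 adjusted p = 0.617). The sum of all 10 protein-coding Serpina3 genes, most of it Serpina3n, had a log2 fold change of 0.19 (edgeR adjusted p = 0.665).

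The remaining Serpina3 genes turned on single libraries. Serpina3c measured 22.5, 29.2 and 23.0 CPM with the antibody and 6.50, 8.25 and 23.6 CPM with IgG. IgG replicate 20 lay inside the antibody range, apart from the other two IgG libraries, and the log2 fold change of 0.96 (SE 0.47, edgeR adjusted p = 0.353) became 1.79 with an adjusted p of 0.0317 without that library. Serpina3m measured 4.88, 3.92 and 5.45 CPM with the antibody and 1.93, 4.04 and 21.5 CPM with IgG. Here IgG replicate 20 was far above all the other libraries. The log2 fold change of -0.95 (SE 0.82, edgeR adjusted p = 0.605) turned to 0.70 without it.

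The heat map of leave-one-out values shows where 1 library decides a member's direction.

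**Figure D3:**
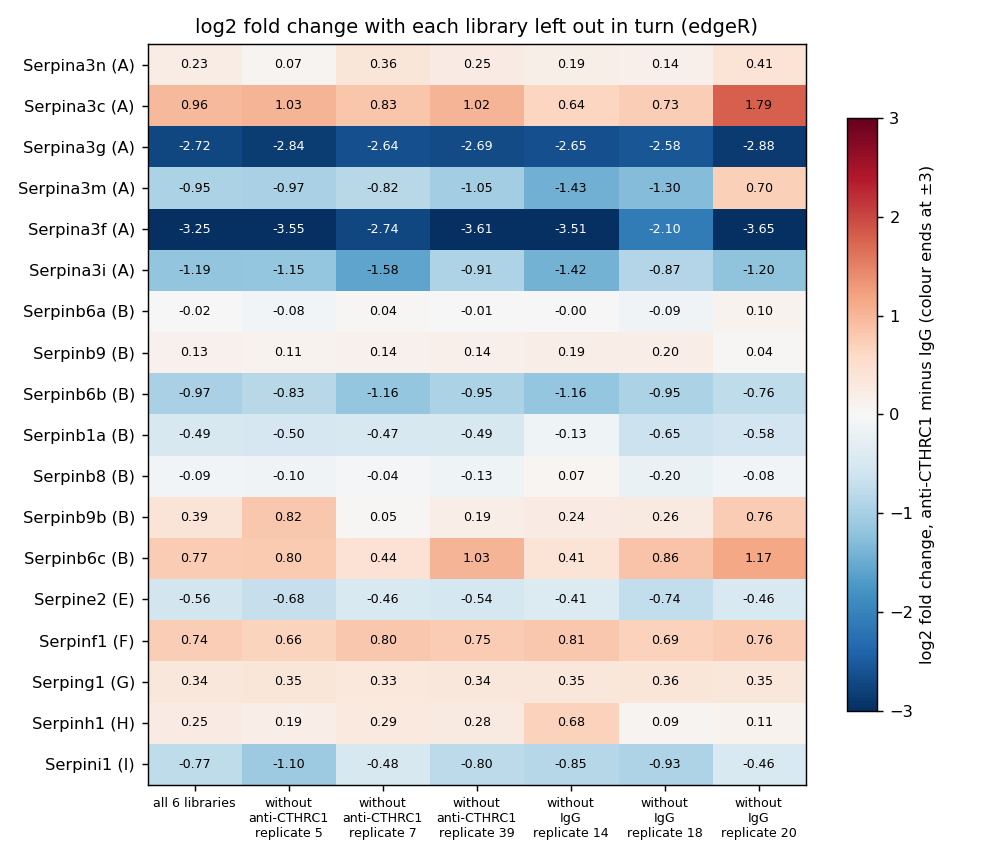
log2 fold change (antibody minus IgG, edgeR) of 18 members of 1 CPM or more with all 6 libraries and with each library left out in turn. Blue stands for lower and red for higher with the antibody, Serpina3g stays between -2.88 and -2.58, and Serpina3m turns from blue to red without IgG replicate 20.

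Clade B serpins lack a secretion signal and guard cells against granule and lysosomal proteases of leukocytes. Of 20 members 13 were tested, and edgeR called 0 of them, against 0.317% of all genes tested, with 1 at an unadjusted p under 0.05 and 1 called by DESeq2, in both cases Serpinb6b. Their median log2 fold change was 0.13. Serpinb6b (ENSMUSG00000042842, chr13:32965209-32979067, plus strand), an intracellular inhibitor that in mice blocks granzyme A, measured 27.8, 44.3 and 34.2 CPM with the antibody and 51.1, 71.8 and 85.9 CPM with IgG. All antibody libraries lay below all IgG libraries. The means of 35.4 ± 8.35 and 69.6 ± 17.5 CPM (SD, n = 3 each) gave a log2 fold change of -0.97 (SE 0.24, edgeR unadjusted p = 0.00509, adjusted p = 0.154, DESeq2 adjusted p = 0.0039).

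Its close relative Serpinb6a, an inhibitor of cathepsin G, was the clade's most abundant member and measured 183.2, 155.6 and 167.4 CPM with the antibody and 174.1, 151.5 and 186.6 CPM with IgG. Those groups overlapped fully, with a log2 fold change of -0.02 (SE 0.12, edgeR adjusted p = 0.966). The gene overlaps Nqo2, Ripk1 and 1110046J04Rik on the opposite strand, and the sources used here do not say whether strand was used in counting. Serpinb6c was low, at 2.03, 2.98 and 1.29 CPM with the antibody and 0.541, 1.37 and 1.78 CPM with IgG, with overlapping groups (log2 fold change 0.77, SE 0.54, edgeR adjusted p = 0.515). The 3 Serpinb6 genes thus had log2 fold changes of -0.97, -0.02 and 0.77 within one cluster, and the differences between them were not tested.

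Serpinb9, which shields cells from granzyme B, measured 77.1, 74.8 and 74.2 CPM with the antibody and 74.9, 75.7 and 56.0 CPM with IgG. All libraries but IgG replicate 20, which was lower, lay within 74.2 to 77.1 CPM (log2 fold change 0.13, SE 0.14, edgeR adjusted p = 0.672). Serpinb9b, which in mice inhibits granzyme M, measured 0.756, 3.46 and 3.05 CPM with the antibody and 1.45, 1.50 and 2.59 CPM with IgG, and the groups overlapped (log2 fold change 0.39, SE 0.59, edgeR adjusted p = 0.784). Serpinb1a, an inhibitor of neutrophil elastase, cathepsin G and proteinase 3, measured 9.74, 9.32 and 9.60 CPM with the antibody and 19.4, 10.2 and 10.7 CPM with IgG. The antibody libraries were all below the IgG libraries, but 2 of the latter by under 1 CPM, and the log2 fold change of -0.49 (SE 0.26, edgeR adjusted p = 0.392) shrank to -0.13 without IgG replicate 14. Neutrophil markers summed to 18.02 to 34.4 CPM with the antibody and 22.2 to 30.5 CPM with IgG, with Ly6g and Camp under 1 CPM. Serpinb8, which inhibits the proprotein convertase furin in humans, measured 10.4, 9.60 and 10.95 CPM with the antibody and 13.3, 9.29 and 10.4 CPM with IgG, with overlapping groups (log2 fold change -0.09, SE 0.17, edgeR adjusted p = 0.833).

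Serpine2 (ENSMUSG00000026249, chr1:79794197-79858696, minus strand) encodes protease nexin-1, a cell-surface inhibitor of thrombin, urokinase and plasmin. Levels were 341.9, 253.9 and 284.7 CPM with the antibody and 517.7, 317.2 and 463.3 CPM with IgG. The groups overlapped, since IgG replicate 18 lay below antibody replicate 5. The means of 293.5 ± 44.7 and 432.7 ± 103.7 CPM gave a log2 fold change of -0.56 (SE 0.21, edgeR unadjusted p = 0.0345, adjusted p = 0.259, DESeq2 adjusted p = 0.0874). Its relative Serpine3 was under 1 CPM and was not tested. Smooth muscle markers, which are expressed by a main cell of the aortic wall, had 8 of 8 negative log2 fold changes with 0 called by edgeR, 2 at an unadjusted p under 0.05 and 1 called by DESeq2, and summed to 2378 to 5424 CPM with the antibody and 3379 to 7783 CPM with IgG. Their part in the values of Serpine2 was not tested.

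Both tested members with higher levels and no overlap encode secreted proteins of the stroma and plasma. Serpinf1 (ENSMUSG00000000753, chr11:75409769-75422701, minus strand) encodes pigment epithelium-derived factor, a collagen-binding serpin without protease inhibition that restrains the growth of new vessels. It measured 852.0, 705.0 and 758.9 CPM with the antibody and 511.1, 427.8 and 449.7 CPM with IgG. The lowest antibody library stood well above the highest IgG library. The means of 772.0 ± 74.4 and 462.9 ± 43.2 CPM (SD, n = 3 each) gave a log2 fold change of 0.74 (SE 0.14, edgeR unadjusted p = 0.00111, adjusted p = 0.0973, DESeq2 adjusted p = 3.217e-05), which kept to 0.66 to 0.81 with each library left out.

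Serping1 (ENSMUSG00000023224, chr2:84765387-84775444, minus strand) encodes C1 inhibitor, which blocks the first proteases of complement and also plasma kallikrein. It was the steadiest member within groups, at 793.6, 829.1 and 810.7 CPM with the antibody and 651.1, 660.9 and 613.1 CPM with IgG. The groups did not overlap. Its means of 811.2 ± 17.8 and 641.7 ± 25.3 CPM (SD, n = 3 each) gave a log2 fold change of 0.34 (SE 0.11, edgeR unadjusted p = 0.0211, adjusted p = 0.222, DESeq2 adjusted p = 0.0356), with 0.33 to 0.36 when each library was left out. Fibroblast markers had 6 of 8 positive log2 fold changes, with 0 called by edgeR, 4 higher at an unadjusted p under 0.05 and 3 called higher by DESeq2, and summed to 19810 to 28400 CPM with the antibody and 11460 to 20420 CPM with IgG. Adipocyte markers had 10 of 10 positive log2 fold changes, with 1 called higher by edgeR and 5 by DESeq2, and summed to 4213 to 8536 CPM with the antibody and 2543 to 4602 CPM with IgG. The part of either cell type in the values of Serpinf1 and Serping1 was not tested.

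**Figure D4:**
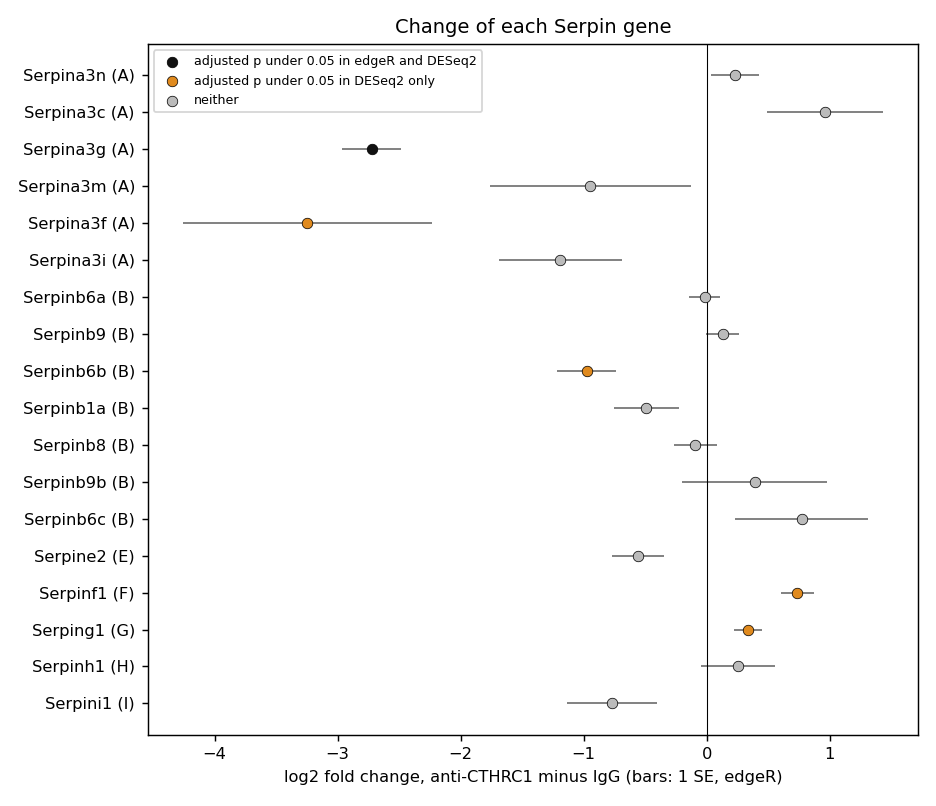
log2 fold change (antibody minus IgG, edgeR, bars 1 SE) of 18 members of 1 CPM or more. Black marks the gene called by edgeR and DESeq2 (Serpina3g at -2.72), orange those called by DESeq2 alone (Serpina3f, Serpinb6b, Serpinf1 and Serping1) and grey the rest.

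Serpinh1 (ENSMUSG00000070436, chr7:99345376-99353239, minus strand), the collagen chaperone of the endoplasmic reticulum, inhibits no protease and had the highest level per length of any member. It measured 1377, 1213 and 1239 CPM with the antibody and 1628, 820.0 and 768.8 CPM with IgG. IgG replicate 14 was the highest library and the other two IgG libraries were the lowest, so the groups overlapped. The log2 fold change of 0.25 (SE 0.30, edgeR adjusted p = 0.721) became 0.68 without IgG replicate 14. Serpini1, neuroserpin, an inhibitor of tissue-type plasminogen activator in nerve cells, measured 11.9, 4.68 and 8.79 CPM with the antibody and 12.95, 11.1 and 19.3 CPM with IgG. The groups overlapped between antibody replicate 5 and IgG replicate 18 (log2 fold change -0.77, SE 0.37, edgeR adjusted p = 0.340). Neuron and Schwann cell markers summed to 47.9 to 50.8 CPM with the antibody and 23.9 to 61.7 CPM with IgG.

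The fold-change plot has Serpina3g and the scarce Serpina3f farthest to the left. Across clades, the 15 clade A members tested had a median log2 fold change of -1.19, with 5 positive and 10 negative. Only 6 of them had 1 CPM or more, with a median of -1.07, 2 positive and 4 negative. Over all genes tested, 9175 were positive and 10066 negative.

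Of the 31 members under 1 CPM, 18 were tested and edgeR called 0, with 2 at an unadjusted p under 0.05 and 2 called by DESeq2. Over all genes tested, 17.1% reached that p and DESeq2 called 7.52%. The latter pair, named after their values were seen, was Serpina1b, a copy of alpha-1-antitrypsin (log2 fold change -2.98, edgeR adjusted p = 0.208), and Serpina5, protein C inhibitor (-2.58, edgeR adjusted p = 0.179). Of the 31, 12 had a count in every library and none lacked a count in all libraries. IgG replicate 14, which had a count for 26950 genes against 23716 to 25088 in the other libraries, was the highest library for 13 of the 31 (41.9%), and for 9 of the 14 in clade A, a clade whose antitrypsins and hormone carriers are made chiefly by the liver. It was also the highest for 29.7% of all 17806 genes under 1 CPM. Antibody replicate 39 was the highest for 11 of the 31 (35.5%) and for 13.55% of all genes under 1 CPM. Hepatocyte markers, of which 9 of 10 were in the table and 6 of those under 1 CPM, summed to 346.9 to 538.7 CPM with the antibody and 122 to 1114 CPM with IgG, most of it Cyp2e1. All 7 tested had negative log2 fold changes (median -1.84), with 0 called by edgeR, 0 at an unadjusted p under 0.05 and 0 called by DESeq2. Alb, Fgb, Apoa1, Apoa2, Ttr, Apob and Cps1 were each highest in IgG replicate 14, with Alb at 16.2 CPM there and 0.225 to 1.94 CPM in the other libraries. These genes were named after their values were seen, and all of them but Alb were under 1 CPM. The list sum, most of it Cyp2e1, was not highest in IgG replicate 14, at 241.4 CPM there and 1114 CPM in IgG replicate 20. All 10 mesothelial and epithelial markers had negative log2 fold changes (median -2.40), with 0 called by edgeR, 5 at an unadjusted p under 0.05 and 4 called lower by DESeq2, and summed to 8.01 to 10.5 CPM with the antibody and 6.67 to 123.2 CPM with IgG. Of 10 heart muscle markers edgeR called 3 higher, Myl4, Myl7 and Sln (log2 fold changes 2.52, 4.24 and 4.64), and DESeq2 called 4 higher, while the list summed to 259.2 to 554 CPM with the antibody and 44.8 to 843.6 CPM with IgG. Mast cell markers summed to 18.1 to 28.8 CPM with the antibody and 17.7 to 26.3 CPM with IgG, and endothelial markers to 970.9 to 1226 and 733.4 to 1263 CPM. Their part in the low members' values was not tested.

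Partners of the serpins were counted in 6 lists, and 2 of their 142 tested genes were called by edgeR, both higher. Beside the counts that follow, the shares over all genes tested were 0.317% called by edgeR, 17.1% at an unadjusted p under 0.05 and 7.52% called by DESeq2. At an unadjusted p under 0.05 the 6 lists together had 18 higher and 17 lower. Among 27 tested proteases that serpins inhibit, edgeR called 0, with 3 higher and 2 lower at an unadjusted p under 0.05 and DESeq2 calling 3 higher and 1 lower (median log2 fold change -0.07). The smallest p belonged to Ctss, cathepsin S, an elastin-degrading protease of macrophages, at 48.4 ± 9.83 CPM with the antibody and 166.0 ± 64.3 CPM with IgG (log2 fold change -1.78, edgeR adjusted p = 0.0869). Masp1, a protease of the lectin pathway of complement that C1 inhibitor blocks (0.88, edgeR adjusted p = 0.143), and Ctsk, the collagen-degrading cathepsin K (0.60, edgeR adjusted p = 0.144), had positive log2 fold changes.

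Of 20 receptors and cofactors of serpins edgeR called 0, with 4 higher and 4 lower at an unadjusted p under 0.05 and DESeq2 calling 1 higher and 2 lower (median 0.26). Plaur, the urokinase receptor, measured 10.7 ± 0.885 CPM with the antibody and 23.4 ± 8.74 CPM with IgG (log2 fold change -1.13, edgeR adjusted p = 0.143). Hspa5, a chaperone of the endoplasmic reticulum (0.76, edgeR adjusted p = 0.179), and Lrp2, an endocytic receptor that clears serpin and protease pairs (-1.96, edgeR adjusted p = 0.240), followed. Of 26 procollagens and folding partners of Serpinh1 edgeR called 0, with 4 higher and 1 lower at an unadjusted p under 0.05 and DESeq2 calling 3 higher (median 0.13). The smallest p values were those of the collagen VI chains Col6a2, Col6a1 and Col6a3, at log2 fold changes of 0.99, 0.87 and 1.23 (edgeR adjusted p = 0.130, 0.149 and 0.186).

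Among 23 other protease inhibitors edgeR called 1, Itih5, a heavy chain that binds hyaluronan, which rose from 34.9 ± 1.29 CPM with IgG to 67.7 ± 8.45 CPM with the antibody (SD, n = 3 each, log2 fold change 0.96, edgeR adjusted p = 0.0344). In this list 2 were higher and 3 lower at an unadjusted p under 0.05, DESeq2 called 2 higher and 3 lower, and the median was 0.02. Among 26 acute-phase and inflammatory cytokine genes edgeR called 1, Orm1, the acute-phase glycoprotein orosomucoid, which rose from 13.7 ± 2.01 to 49.1 ± 9.25 CPM (log2 fold change 1.84, edgeR adjusted p = 0.0203, median of the list -0.09). At an unadjusted p under 0.05, 4 acute-phase and cytokine genes were higher and 5 lower, and DESeq2 called 3 higher and 5 lower. Serpina3n, itself an acute-phase gene, did not pass. Among 20 genes of the interferon-gamma response, edgeR called 0, with 1 higher and 2 lower at an unadjusted p under 0.05 and DESeq2 calling 2 lower (median -0.33). Those of smallest p were Ifngr2 (log2 fold change -0.54), Irf8 (-0.92) and Nos2 (0.76), with edgeR adjusted p of 0.151, 0.164 and 0.285.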

How the data were processed

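The authors deposited 1 table with whole-number counts and FPKM values per gene for the 6 libraries, with symbols, gene types and coordinates, per the file headers. Paired-end libraries came from a stranded kit for total RNA, per the labels' protocols. HISAT2, StringTie, DESeq2 and the build GRCm38 are named in the submitters' processing notes, and their versions, the annotation release, the use of strand and the treatment of reads with several matches are not given in the sources used here. Of the deposited counts below 60, 56.3% to 57.4% were even, and it was not tested if each pair was counted as 2 reads, which would make low counts less precise than they look. Counts were tested with edgeR 4.0.16 in R 4.3.3 (filterByExpr, TMM, robust quasi-likelihood fit, two-sided, Benjamini-Hochberg over 19241 genes, threshold 0.05). TMM factors were 0.932 to 1.129. DESeq2 1.42.0, limma 3.58.1 on voom weights or on log2(FPKM + 1), other filters and leaving out each library were alternatives. The authors' FPKM served only for levels between genes and for that alternative. The scripts were tested on simulated data, where edgeR recovered 0% of 2-fold changes and 44% of 4-fold changes, with 0 false calls. A list without a call therefore does not show that its genes were unchanged. Exact windows and coding sequences came from GENCODE M21, promoters from RefSeq (GRCm38.p6). Named were the members with a mean of 1 CPM or more, of which 1 is not reported here, and from each partner list the genes past the threshold or otherwise the 3 of smallest p. Some members under 1 CPM and some marker genes were also named outside this rule, and not all of them are marked as such. The members and lists were chosen with earlier results of these data known.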

Additional observations from a re-analysis of the deposited data

How the results depend on the processing

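No paired analysis was possible because the groups share no replicate number. Serpina3g kept its direction and passed the threshold in every alternative that tested it with all 6 libraries, and DESeq2 called it with each library left out. It lost edgeR's call without antibody replicate 5, 7 or 39, without IgG replicate 18, and without antibody replicate 39 and IgG replicate 14 together. The number of genes called, 61, became 1584 with DESeq2, 95 with no filter on low counts, 98 at a mean of 5 CPM, 234 at a threshold of 0.10 and 0 without antibody 39 and IgG 14, with 0 to 227 when 1 library was left out in edgeR and 732 to 2506 in DESeq2. The 1 member called became 8 with DESeq2, 2 at the threshold of 0.10, 0 with the Serpina3 genes summed and 0 without antibody 39 and IgG 14, with 0 to 2 when 1 library was left out in edgeR and 4 to 10 in DESeq2. The 2 called genes of the partner lists became 26 with DESeq2, 1 with limma on FPKM, 4 at the threshold of 0.10 and 0 without antibody 39 and IgG 14, with 0 to 8 when 1 library was left out in edgeR and 10 to 32 in DESeq2. The members' median of -0.09 ran from -0.49 to 0.19 when 1 library was left out in edgeR and from -0.63 to 0.20 in DESeq2, and was 0.13 with limma-voom. Leaving out 1 library in edgeR or DESeq2 moved the log2 fold change of Serpina3m between -1.43 and 0.70, both in edgeR, with 0.67 in DESeq2 without IgG 20. Members near 0 changed sign: over the same fits Serpinb6a ran from -0.10 to 0.096, Serpinb8 from -0.21 to 0.072 and Serpinb9 from -0.0010 to 0.20. Serpinb6a was also 0.018 with no filter and 0.0043 without antibody 39 and IgG 14, where Serpinb8 was 0.024. The cause was not tested. Depth limits the members under 1 CPM, whose low counts cannot show small changes.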
